A study of Mus musculus with 49 samples.

Results

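The genes described here are the nuclear genes of the mitochondrial respiratory chain and ATP synthase in mouse macrophages and CD4 T cells. Members were taken by symbol: those starting with Ndufa, Ndufb, Ndufc, Ndufs, Ndufv, Sdha, Sdhb, Sdhc, Sdhd, Uqcr, Cox4i, Cox5, Cox6, Cox7, Cox8 or Atp5 whose mean in an RNA table was at least 1 CPM (a read count scaled to a common library total), with symbols carrying a pseudogene tag (-ps) left out. In all, 93 symbols met this rule in at least 1 of the 5 RNA tables, of 24213 genes listed, and 79 of them did so in every table. The macrophage table held 91 members among 14896 genes: 38 complex I subunits, 8 complex I assembly factors, 8 genes of complex II and its assembly, 8 of complex III, 12 of complex IV and 17 of the ATP synthase. The T cell tables held 81 to 84 members. Atp5pb and Atp5f1 are 2 symbols of 1 gene, listed in different tables. The grouping follows the symbols, so Ndufa4 stands with complex I although its protein is known as a subunit of complex IV.

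The respiratory chain passes electrons from NADH (complex I) and succinate (complex II) through complex III to oxygen at complex IV, and the ATP synthase uses the resulting proton gradient to make ATP. Complex II is also the succinate dehydrogenase of the citric acid cycle. In macrophages, LPS is known to shift metabolism from respiration towards glycolysis, with succinate and itaconate building up while the macrophage is activated. Most subunits are encoded in the nucleus and imported. The mitochondrial genome encodes some subunits of complexes I, III and IV and of the ATP synthase, and none of those genes was listed in the tables used here.

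The study compared C57BL/6 mouse cells that were knockout (KO) for Elf4, an ETS-family transcription factor, or carried Elf4 W250S, a substitution in the protein, with wild-type (WT) cells. Bone marrow-derived macrophages, grown for 7 days with the growth factor M-CSF, were KO or WT and had received LPS, the bacterial product sensed by TLR4, at 100 ng/ml for 4 h or 16 h, or none (0 h). Naive CD4 T cells, untreated, came in a KO-labelled set (4 libraries with 3 WT) and a W250S set (3 with 3 WT). Th17 cells of both W250S and WT genotype had spent 48 h in culture, in a pathogenic condition (IL-23 and IL-1b beside IL-6) or a non-pathogenic one (TGF-beta beside IL-6), and open chromatin was measured by ATAC-seq in naive CD4 cells labelled KO and WT. Every group other than the KO-labelled naive RNA set had 3 libraries, and each of the 18 macrophage libraries has a mouse number of its own in the file header. Macrophage libraries with the same replicate number correlated in their deviations across times, so 18 separate animals are not certain. For the T cell libraries the labels do not say whether they came from separate animals or cultures, so p-values there measure the spread between libraries, which may be technical.

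Elf4 averaged 22.0, 17.2 and 29.5 CPM in KO macrophages at 0, 4 and 16 h, against 105, 68.7 and 132 CPM in WT macrophages. In naive CD4 libraries labelled KO it stood at 189 CPM, against 191 CPM in WT, so those libraries are called KO-labelled throughout. All 6 macrophage markers were present in the macrophage libraries, all 7 naive CD4 markers in the T cell tables, and all 5 Th17 markers in both Th17 tables. The deposited CPM summed to between 950599 and 954161 per macrophage library and to between 472848 and 543838 per T cell library, so T cell levels were scaled over more than the listed genes and levels of different tables are not compared. In bulk libraries fewer cells of a type and less RNA per cell cannot be told apart.

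In WT macrophages most respiratory chain transcripts fell within 4 h of LPS as shares of the library, and their median fall was smaller than that of all genes. After scaling to the typical gene more members were higher than lower. On deposited CPM a subset returned at 16 h. The members' CPM added up to 7165, 7526 and 7044 in the 3 WT libraries at 0 h, to 4630, 4986 and 4914 at 4 h and to 5180, 5178 and 5005 at 16 h. The 0 h libraries lay above all others, and the 16 h libraries lay above the 4 h libraries. At 4 h against 0 h, 90 of 91 members were lower and 1, Ndufs4, was higher at a Benjamini-Hochberg adjusted p below 0.05 in limma on log2(CPM + 1), where 71.3% of all genes tested were lower and 15.6% higher. The median log2 difference was -0.68 over the members and -0.81 over all 12058 genes tested. Median-ratio scaling, which sets the typical gene to no change, moved the median of all genes to -0.03 and that of the members to 0.21, with 43 members higher and 4 lower, where 35.4% of all genes were higher and 37.2% lower. The lower levels at 4 h are thus shares of the library, and 42 members turned from lower to higher when the typical gene was the yardstick.

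**Figure D1:**
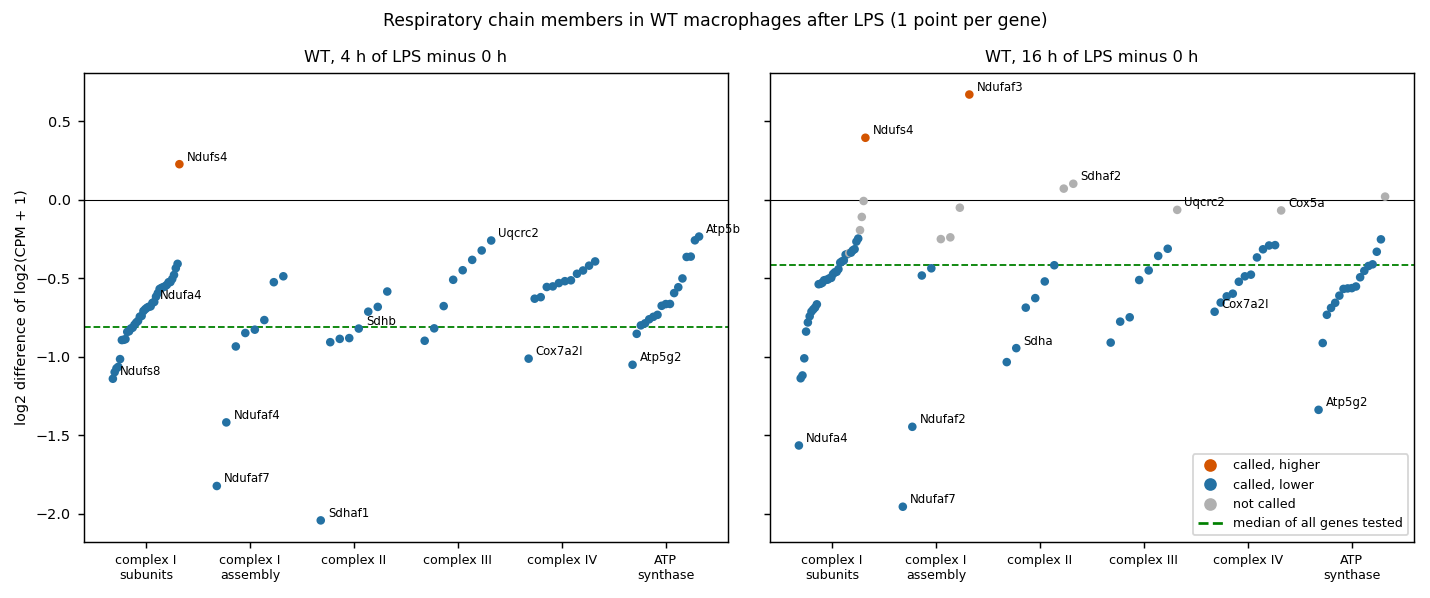
Log2 difference of log2(CPM + 1) for each of the 91 members in WT macrophages at 4 h (left) and 16 h (right) of LPS, minus 0 h, sorted within each complex. Points are coloured by the call in limma on deposited CPM and the dashed line is the median of all genes tested (-0.81 and -0.41); 90 members are lower at 4 h on this scale, and after median-ratio scaling 43 are higher and 4 lower.

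At 4 h the summed deposited CPM, in which the typical gene is lower as well, differed from 0 h by -55.2% for complex I assembly factors, -41.5% for complex II, -39.4% for complex I subunits, -33.5% for complex IV, -28.8% for complex III and -27.4% for the ATP synthase. The assembly factors stood out: Ndufaf7, a methyltransferase that modifies a complex I subunit, had 3.64, 2.89 and 2.90 CPM at 4 h, against 11.6, 15.4 and 14.0 CPM at 0 h. Its log2 difference was -1.82 (SE 0.15, adjusted p = 3.53e-09 in limma). Sdhaf1, which helps insert iron-sulfur clusters into complex II, had 0.867, 0.532 and 1.56 CPM at 4 h, against 6.58, 8.33 and 6.21 CPM at 0 h, a log2 difference of -2.04 (SE 0.20, adjusted p = 2.77e-08). Ndufaf4, another complex I assembly factor, differed by -1.42. These 3 genes and Ndufs8, a complex I subunit that carries iron-sulfur clusters (-1.14), were the 4 members that stayed lower after median-ratio scaling, at -1.04 for Ndufaf7, -1.43 for Sdhaf1, -0.64 for Ndufaf4 and -0.25 for Ndufs8.

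Ndufs4, a complex I subunit whose loss is used as a mouse model of mitochondrial disease, was the exception in the other direction. It had 24.5, 29.6 and 29.0 CPM at 4 h in WT macrophages, against 24.9, 23.9 and 21.7 CPM at 0 h, so the groups overlapped in 1 value. The log2 difference was 0.23 (SE 0.09, adjusted p = 0.0226 in limma) and 1.11 after scaling. At 16 h it had 31.3, 32.7 and 29.6 CPM, above every 0 h library, with a log2 difference of 0.40 (adjusted p = 0.000565).

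By 16 h the members had parted. Against 0 h, 77 of 91 were lower and 2 higher, where 56.5% of all genes tested were lower and 18.3% higher, with a median of -0.49 over the members and -0.41 over all genes. After median-ratio scaling 21 were lower and 13 higher, where 33.8% and 33.6% of all genes were, with a member median of -0.04. Against 4 h, 38 were higher and 7 lower, where 51.0% and 22.1% of all genes were, and after scaling 8 were higher and 57 lower, where 32.9% and 36.7% of all genes were. The median of the members at 16 h against 4 h was 0.17, against 0.35 for all genes, and -0.27 after scaling.

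The genes that fell further between 4 h and 16 h included Ndufa4 and Atp5g2, on deposited CPM and after scaling. WT libraries held Ndufa4 at 93.1, 109 and 94.6 CPM at 0 h, at 60.0, 63.0 and 63.9 CPM at 4 h and at 30.8, 34.8 and 32.7 CPM at 16 h, with no overlap between times. The log2 difference at 16 h against 0 h was -1.56 (SE 0.10, adjusted p = 3.04e-10 in limma), the most negative among complex I subunits, and -1.10 after scaling. AA467197, the mouse symbol of Nmes1, a paralog of Ndufa4 known to take its place in complex IV during inflammation, is not a member and was added after its values were seen. In WT libraries it had 0.883, 2.22 and 1.13 CPM at 0 h, 251.6, 242.4 and 248.4 CPM at 4 h and 74.4, 57.0 and 76.6 CPM at 16 h.

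Atp5g2, 1 of 3 genes for the membrane c subunit through which protons pass, had 133, 139 and 135 CPM at 0 h in WT macrophages, 59.7, 68.8 and 67.0 CPM at 4 h and 52.6, 56.1 and 50.8 CPM at 16 h. At 16 h against 0 h its log2 difference was -1.34 (SE 0.08), that of Atp5g1 was -0.91 and that of Atp5g3 was -0.69, and each stayed negative after scaling, at -0.88, -0.45 and -0.23. Sdha, the flavoprotein subunit of complex II, also ended lower (-0.94, and -0.48 after scaling). Ndufaf2, a complex I assembly factor, differed by -1.45 and Ndufaf7 by -1.95. Uqcr11 (-0.91), Uqcrfs1, the Rieske iron-sulfur protein (-0.78), and Uqcr10 (-0.75) of complex III were lower. Among the members grouped with complex IV, which leaves out Ndufa4, the largest difference was that of Cox7a2l, known as a supercomplex assembly factor (-0.71).

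Another set returned to or above its starting level on deposited CPM. Sdhb, the iron-sulfur subunit of complex II, had 107, 113 and 105 CPM at 0 h in WT libraries, 60.4, 60.5 and 61.4 CPM at 4 h and 116, 109 and 116 CPM at 16 h. Its log2 difference was 0.89 at 16 h against 4 h (SE 0.08, adjusted p = 1.18e-08 in limma) and 0.07 at 16 h against 0 h, where it was not called. Sdhaf2, which attaches the flavin cofactor to Sdha, ran in parallel with means of 41.6, 22.2 and 44.7 CPM. After median-ratio scaling neither Sdhb nor Sdhaf2 was lower at 4 h than at 0 h. The subunits of complex II thus differed among themselves at 16 h against 0 h, with log2 differences of -0.94 for Sdha, -0.52 for Sdhc, -0.42 for Sdhd and 0.07 for Sdhb, and of -0.48, -0.058, 0.044 and 0.53 after scaling in that order. Ndufaf3, a complex I assembly factor, had 17.9, 20.7 and 18.6 CPM at 16 h, against 10.9, 12.1 and 11.8 CPM at 0 h, with no overlap, and its log2 difference of 0.67 (SE 0.12, adjusted p = 5.03e-05) was the largest positive one among members. At 16 h against 4 h Ndufb9 (0.78), Ndufv3 (0.75), Ndufaf1 (0.78) and Ndufaf4 (0.94) were higher as well, in deposited CPM and after scaling.

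**Figure D2:**
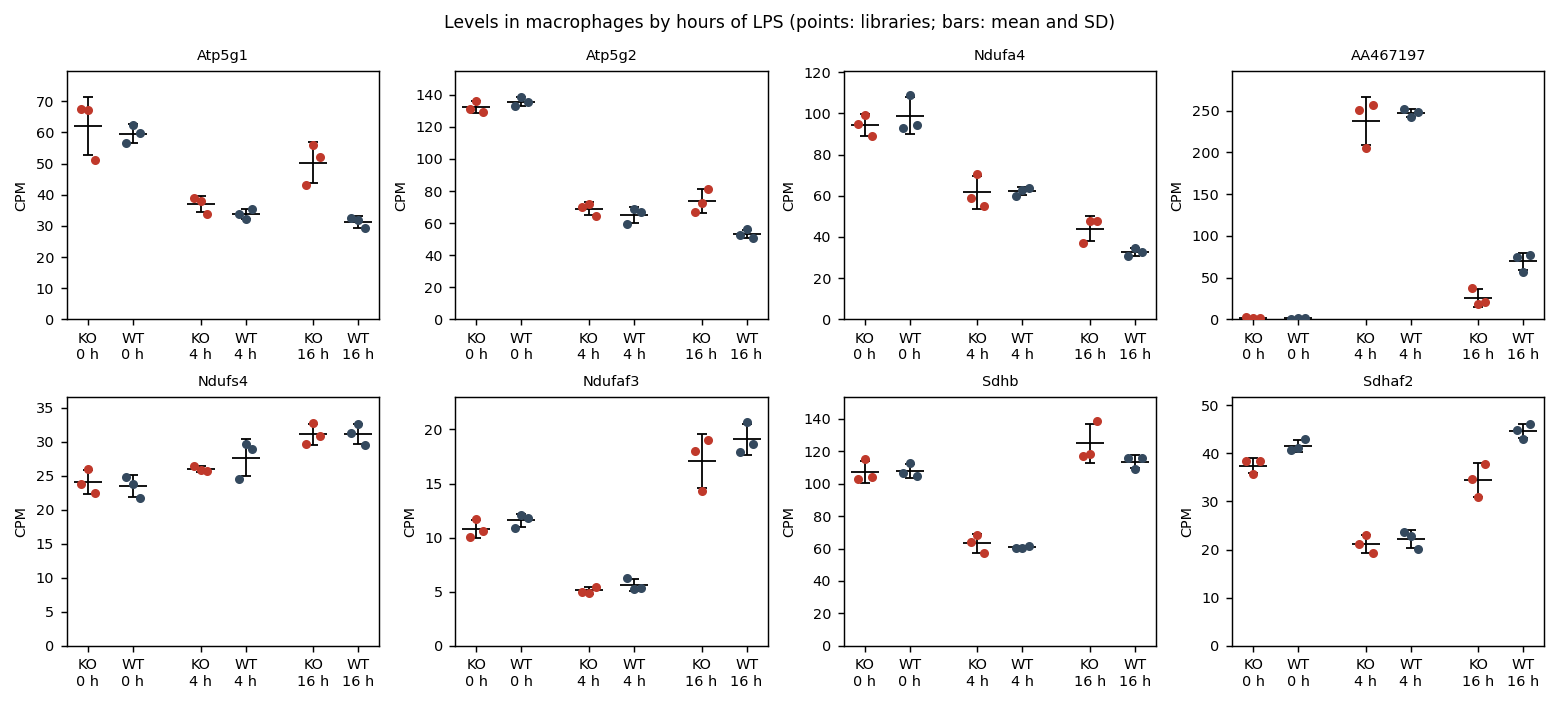
CPM of 7 members and of AA467197 in every macrophage library, with KO (red) left of WT (dark) at 0, 4 and 16 h of LPS; points are libraries and bars are means with SD (n = 3). At 16 h all KO libraries lie above all WT libraries for Atp5g1, Atp5g2 and Ndufa4, below them for Sdhaf2 and AA467197, and among them for Ndufs4.

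Before LPS and at 4 h no respiratory chain gene passed the test between KO and WT macrophages. At 0 h the members summed to 7362, 7603 and 6642 CPM in KO libraries, against 7165, 7526 and 7044 CPM in WT libraries, and the groups overlapped. No member was called by limma at 0 h, where 0.44% of all genes were called, and none had an unadjusted p below 0.05. The median log2 difference was -0.02 over the members, within a range of -0.29 to 0.19, and 0.00 over all genes. The KO libraries lay wholly above the WT libraries for 1 member and wholly below for 6, where 6.88% and 7.35% of all genes did so. At 4 h the sums were 4912, 5311 and 4529 CPM in KO libraries, against 4630, 4986 and 4914 CPM in WT libraries, again with overlap. No member was called at 4 h, where 4.19% of all genes were called, and 1 had an unadjusted p below 0.05. The medians were 0.01 over the members and 0.04 over all genes.

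At 16 h of LPS 55 of 91 respiratory chain genes were higher in KO macrophages and 1, Sdhaf2, was lower, and 20 were higher after median-ratio scaling, none of them in complex II. The members summed to 5928, 6006 and 6592 CPM in KO libraries, against 5180, 5178 and 5005 CPM in WT libraries. Every KO library lay above every WT library, and the mean was 20.6% higher. Of all genes 20.9% were higher and 9.65% lower. The KO libraries lay wholly above the WT libraries for 74 members and wholly below for 1, where 33.6% and 15.1% of all genes did so. The median log2 difference was 0.29 over the members and 0.12 over all genes.

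The number of calls depended on the scaling and on single libraries. After median-ratio scaling 20 members were higher and Sdhaf2 was lower, where 12.5% and 13.9% of all genes were, and the medians were 0.18 over the members and 0.02 over all genes. All 21 of these were also called without scaling in the same direction. Calls numbered 26 without KO replicate 3, the library with the highest sum, and 33 without WT replicate 3, the library with the lowest, and 21 members were called whichever 16 h library was left out. Markers of stromal cells (5 of 5 present: Col1a1, Col1a2, Col3a1, Dcn, Pdgfrb) also stood higher in KO means, with summed levels of 1096, 2274 and 676 CPM in KO replicates 1, 2 and 3 at 16 h, against 391, 535 and 745 CPM in WT replicates. KO replicate 3 had the lowest of the KO stromal sums and the highest of the KO sums over respiratory chain members at 16 h. At 0 h and at 4 h that replicate had the lowest of both KO sums. At 0 h the stromal sums were 679, 1251 and 397 CPM in KO libraries, against 275, 340 and 496 CPM in WT libraries, where no member was called. Summed macrophage markers were higher in KO libraries at 16 h as well, at 22619 to 28317 CPM in KO, against 17050 to 18449 CPM in WT libraries. The part of stromal or macrophage content in the 16 h result was not tested, and without KO replicate 2, the library with the highest stromal sum, 44 members were called.

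**Figure D3:**
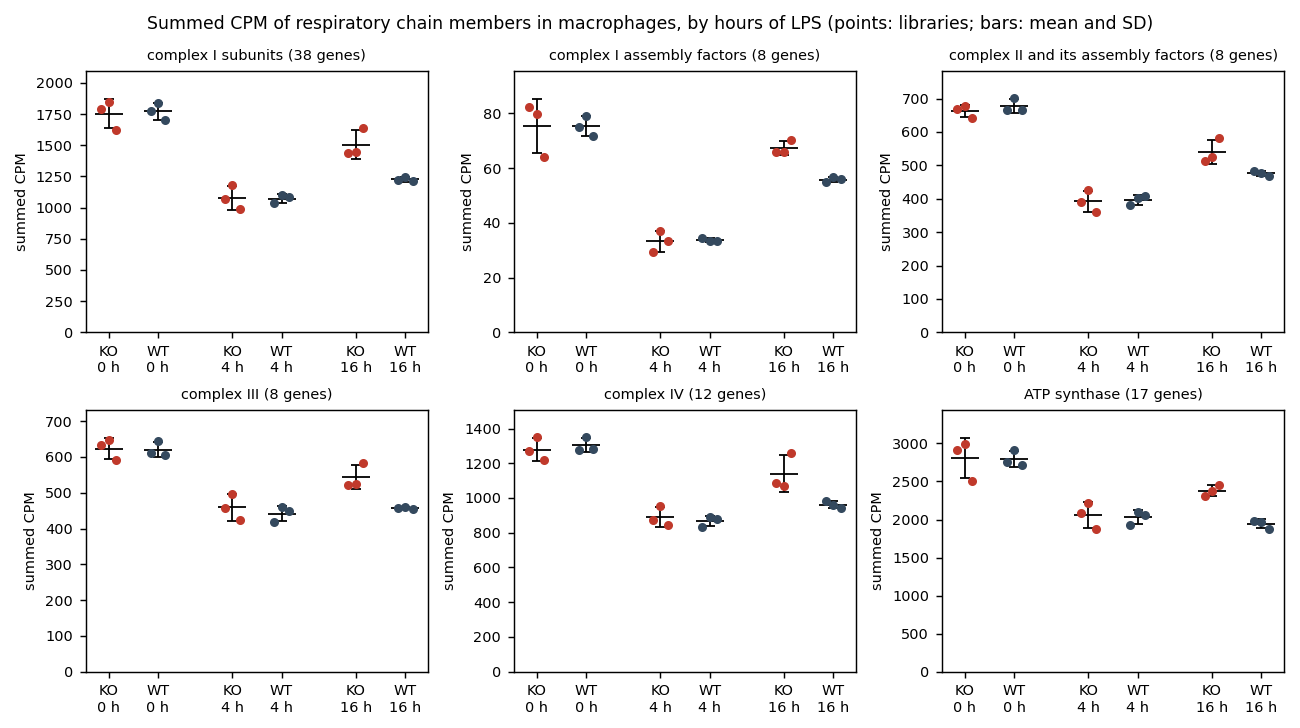
Summed CPM of the members of each complex in every macrophage library, KO (red) left of WT (dark) at 0, 4 and 16 h of LPS; points are libraries and bars are means with SD (n = 3). KO and WT overlap at 0 and 4 h in each panel, and at 16 h every KO library lies above every WT library in each panel.

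Of the ATP synthase genes 14 of 17 were higher in KO macrophages at 16 h, and their summed CPM was 22.5% higher. Atp5g1, a c subunit gene known to respond to regulators of mitochondrial content, had 43.0, 55.9 and 52.1 CPM in KO libraries at 16 h, against 32.7, 31.9 and 29.2 CPM in WT libraries. The groups did not overlap, and the log2 difference was 0.66 (SE 0.11, adjusted p = 0.000387 in limma). Atp5g2 had 66.8, 72.7 and 81.6 CPM in KO libraries, against 52.6, 56.1 and 50.8 CPM in WT libraries, a log2 difference of 0.46 (SE 0.08, adjusted p = 0.000468). Atp5g3, the other c subunit gene, differed by 0.40. Atp5d of the central stalk (0.45) and Atp5h of the peripheral stalk (0.43) were also higher. These 5 were the ATP synthase genes called after scaling as well. Atp5b, the catalytic beta subunit, averaged 640 ± 17.4 CPM in KO and 531 ± 16.4 CPM in WT libraries (SD, n = 3 each), a log2 difference of 0.27 that was called (adjusted p = 0.0468) but not after scaling or without any 1 of the 16 h libraries. Atp5pb, Atp5j and Atp5j2 were not called, with log2 differences of 0.16, 0.21 and 0.27.

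Among complex I subunits 23 of 38 were higher, none was lower, and the summed CPM was 22.6% higher. Ndufb4, an accessory subunit of the membrane arm, had the largest difference: 11.1, 13.6 and 17.6 CPM in KO libraries, against 9.23, 10.4 and 7.73 CPM in WT libraries, a log2 difference of 0.56 (SE 0.15, adjusted p = 0.011 in limma). Ndufb4 has a near copy, Ndufb4c (0.37), and how reads were divided between them is not known. Ndufs8 stood at 29.8, 30.4 and 30.7 CPM in KO libraries, against 20.3, 21.9 and 21.7 CPM in WT libraries, with no overlap (0.49, SE 0.11, adjusted p = 0.00324). Ndufb6 (0.48), Ndufs5 (0.46) and Ndufa12 (0.46) followed. Ndufa4 had 36.9, 47.8 and 47.7 CPM in KO libraries, against 30.8, 34.8 and 32.7 CPM in WT libraries (0.41), while its paralog AA467197 had 37.5, 18.5 and 21.2 CPM in KO libraries, against 74.4, 57.0 and 76.6 CPM in WT libraries. Both pairs of groups were free of overlap, in opposite directions. Ndufs4, the member that was higher in WT at both times after LPS, was not called, with 31.1 ± 1.57 CPM in KO and 31.2 ± 1.52 CPM in WT libraries (SD, n = 3 each).

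Of 8 complex I assembly factors 4 were higher. Ndufaf7 had 3.98, 5.76 and 5.42 CPM in KO libraries, against 3.13, 2.44 and 2.76 CPM in WT libraries, with no overlap and a log2 difference of 0.67 (SE 0.15, adjusted p = 0.00404 in limma), the largest of all members. Ndufaf2 (0.59), Ndufaf4 (0.53) and Ndufaf8 (0.38) were higher too. Ndufaf3, which was higher at 16 h than at 0 h in WT, had 17.97, 14.29 and 19.01 CPM in KO libraries, against 17.9, 20.7 and 18.6 CPM in WT libraries, and was not called (-0.16).

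Complex II held the 1 member that was lower and 3 of 8 that were higher. Sdhaf2 had 34.6, 30.8 and 37.8 CPM in KO libraries at 16 h, against 45.0, 43.1 and 46.1 CPM in WT libraries, with no overlap. The log2 difference was -0.37 (SE 0.09, adjusted p = 0.00566 in limma) and -0.48 after scaling, and it was called whichever 16 h library was left out. Sdha (0.27) and Sdhc (0.24), the flavoprotein and a membrane anchor, were higher, and neither was called after scaling. Sdhd, the other anchor (0.22, adjusted p = 0.056), and Sdhb (0.13, adjusted p = 0.204) were not called. Sdhaf1 was higher, with 5.81, 5.84 and 7.15 CPM in KO libraries, against 4.47, 4.35 and 3.18 CPM in WT libraries (0.54, adjusted p = 0.0484).

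In complex III 5 of 8 members were higher. Uqcrh, the hinge protein of the cytochrome c1 module, had 56.1, 51.0 and 68.9 CPM in KO libraries, against 44.4, 44.1 and 41.3 CPM in WT libraries (0.42, SE 0.10, adjusted p = 0.00616 in limma). The small subunits Uqcr10 and Uqcr11 each differed by 0.40, and Uqcrfs1 by 0.29. The large core subunits did not pass: Uqcrc1 differed by 0.17 and Uqcrc2 by 0.05. In complex IV 6 of 12 members were higher, led by Cox7b (0.33), Cox5a (0.31), Cox7a2l (0.30) and Cox6b1 (0.26). Of these only Cox5a was called after scaling, with 128, 129 and 151 CPM in KO libraries, against 116, 108 and 104 CPM in WT libraries. Cox5b, the nuclear subunit that binds zinc, was not called (0.09), nor was Cox7a1, the muscle isoform, which averaged 0.890 CPM in KO and 0.754 CPM in WT libraries.

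**Figure D4:**
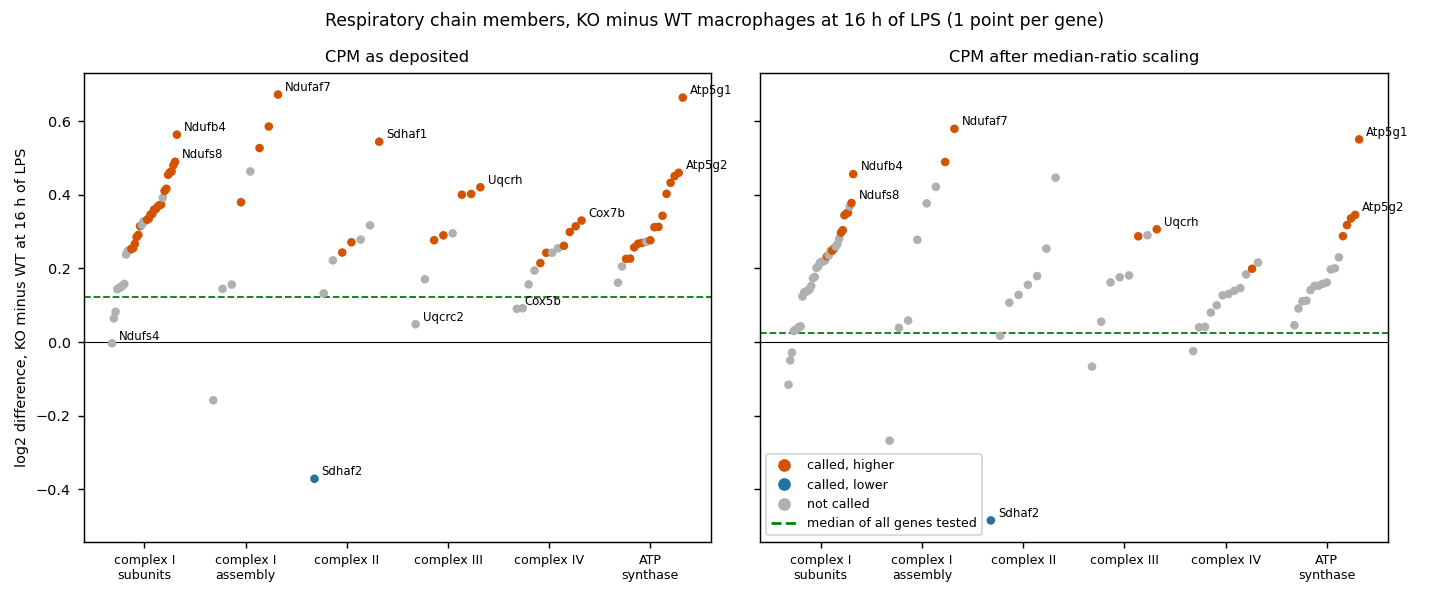
Log2 difference, KO minus WT macrophages at 16 h of LPS, for each of the 91 members by complex, on deposited CPM (left) and after median-ratio scaling (right); colours give the limma call and the dashed line is the median of all genes tested (0.12 left, 0.02 right). On the left 55 members are called higher and Sdhaf2 lower; on the right 20 are called higher and Sdhaf2 lower.

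Whether the KO effect itself differed between 16 h and 0 h was tested as an interaction. It was called for 6 of 91 members, all with a larger KO effect at 16 h, where 3.62% of all genes were called in that direction and 2.83% in the other. They were Atp5g1 (0.62, SE 0.15, adjusted p = 0.0268 in limma), Ndufs5 (0.56), Ndufa12 (0.50), Atp5g2 (0.50), Atp5h (0.44) and Atp5d (0.42). After median-ratio scaling Atp5g1 and Atp5g2 were called, where 1.7% of all genes were called higher, and Atp5g2 was the 1 member called whichever library was left out. Without WT replicate 3 of 16 h that member alone was called, 2 were called without WT replicate 2 or KO replicate 3 of 0 h, and 3 without WT replicate 3 of 0 h or KO replicate 3 of 16 h. The median difference of effects was 0.31 over the members and 0.11 over all genes. These calls took no account of replicate numbers shared across times. A block by genotype and replicate number called more members and also more of all genes. Ndufs5 had a tagged copy, Ndufs5-ps, in the same table, at 4.49 CPM in KO and 2.66 CPM in WT libraries at 16 h. At 0 h that copy averaged 3.96 CPM in KO and 2.67 CPM in WT libraries. Reads of Ndufs5 may thus have been split. For 4 h against 0 h no member was called, where 0.00829% of all genes were called, and none had an unadjusted p below 0.05.

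Related gene lists differed in how many members passed the test in KO macrophages at 16 h, where 20.9% of all genes were higher and 9.65% lower. The citric acid cycle enzymes were higher for 10 of 13 genes, among them Cs, citrate synthase (0.27), and Idh3a, of isocitrate dehydrogenase (0.72), with a median of 0.28. Genes of the mitochondrial ribosome were higher for 26 of 78 and lower for 1, with a median of 0.26. Genes of the cytosolic ribosome were higher for 72 of 95, with a median of 0.32. After median-ratio scaling 42 cytosolic ribosomal genes and 4 citric acid cycle genes were called higher, where 12.5% of all genes were. Electron carriers and other entry points (3 of 17 higher), regulators of respiratory genes (3 of 13 higher) and further assembly factors (8 of 33 higher and 2 lower) had medians of 0.15, 0.17 and 0.13, close to the 0.12 of all genes. Cytosolic ribosomal genes, whose products do not enter mitochondria, thus had a larger share of calls than the respiratory chain. By profile over the 6 macrophage groups, the genes outside the list most like the members' mean were Phb2, a prohibitin of the inner mitochondrial membrane, Trim44, Nol6, Zfp772 and Nsmce3, with Pearson correlations of 0.998 to 1.000 over 6 group means that share libraries.

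In T cells few members passed the test. KO-labelled naive CD4 libraries summed to 1268, 1253, 1278 and 1266 CPM over 82 members, against 1222, 1202 and 1116 CPM in WT libraries, with no overlap. Uqcrh was the 1 member called, where 8.03% of all genes were called: 18.2, 15.8, 19.9 and 18.6 CPM in KO-labelled libraries, against 12.9, 14.7 and 11.4 CPM in WT libraries, a log2 difference of 0.45 (SE 0.10, adjusted p = 0.0173 in limma). The call was lost without WT replicate 1 or without WT replicate 3, while 4 members were called without WT replicate 2 and 2 without KO-labelled replicate 4, where 895 and 1380 of all genes were called, beside 1036 with every library. That table also lists Uqcrh-ps1 at 16.0 CPM in KO-labelled and 13.0 CPM in WT libraries, and Uqcrh-ps2 at 11.3 CPM in KO-labelled and 9.50 CPM in WT libraries, so reads of Uqcrh may be shared with its copies. The median was 0.12 over the members and 0.00 over all genes, 68 of 82 members had a positive difference, and the KO-labelled libraries lay wholly above WT for 12 members and wholly below for 1, where 11.1% and 10.1% of all genes did so. The 3 erythroid marker genes summed to 22.8, 4.58, 3.75 and 0.01865 CPM in KO-labelled replicates 1 to 4, against 0.115, 0.0935 and 0.176 CPM in WT libraries, and their part in these values was not tested. Without KO-labelled replicate 1, the library with the highest erythroid sum, 1 member was called.

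In W250S naive CD4 cells no member was called by limma, where 4.16% of all genes were called. Without adjustment 5 members had a p below 0.05, a looser threshold than that of the 4.16%. The largest log2 differences were in Ndufb2 (0.42), Ndufs5 (0.41) and Uqcrq (0.35), and the median was 0.14 over the members and 0.07 over all genes. Ndufs5 had 3.03, 3.12 and 3.38 CPM in W250S libraries, against 2.15, 1.77 and 2.55 CPM in WT libraries, without overlap (adjusted p = 0.119). The W250S libraries lay wholly above WT for 9 members and wholly below for none, where 17.1% and 4.58% of all genes did so, and 72 of 81 members had a positive difference. The sums were 1398, 1268 and 1436 CPM in W250S libraries, against 1173, 1256 and 1361 CPM in WT libraries, and they overlapped.

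In pathogenic Th17 cells the members summed to 2038, 2078 and 2034 CPM in W250S libraries, against 1991, 1941 and 1957 CPM in WT libraries, with no overlap and a mean 4.43% higher. No member was called by limma, where 2.06% of all genes were called. Without adjustment 10 members had a p below 0.05, a looser threshold than that of the 2.06%. The largest differences were in Ndufa7 (0.33), Atp5j2 (0.31) and Ndufa9 (0.29), and the median was 0.06 over the members and 0.01 over all genes. Ndufa9, a subunit at the joint of the arms of complex I, had 7.62, 9.06 and 7.77 CPM in W250S libraries, against 6.20, 6.43 and 6.72 CPM in WT libraries, without overlap (adjusted p = 0.113 in limma). The W250S libraries lay wholly above WT for 15 members and wholly below for 3, where 13.0% and 11.4% of all genes did so. All 5 Th17 markers were present and summed to 66.1, 65.0 and 104 CPM in W250S libraries, against 40.3, 58.6 and 48.3 CPM in WT libraries, with no overlap, and their part in these values was not tested.

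In non-pathogenic Th17 cells the direction was mixed. Ndufaf4 (0.33, SE 0.08, adjusted p = 0.03 in limma) and Ndufaf1 (0.31, adjusted p = 0.0321), both complex I assembly factors, were higher and Ndufv3, a small subunit of the NADH-binding arm, was lower (-0.30, adjusted p = 0.0446), where 4.12% of all genes were higher and 2.94% lower. Ndufaf4 had 21.4, 23.0 and 22.7 CPM in W250S libraries, against 16.2, 19.4 and 17.1 CPM in WT libraries. Ndufaf1 had 14.98, 15.52 and 15.33 CPM in W250S libraries, against 11.7, 12.8 and 12.0 CPM in WT libraries. Ndufv3 had 17.3, 16.9 and 19.2 CPM in W250S libraries, against 20.4, 22.4 and 23.5 CPM in WT libraries. In pathogenic cells Ndufv3 differed by -0.27 without being called. None of the 3 calls held without WT replicate 3 or without any 1 of the W250S replicates 1, 2 and 3, where 54 to 364 of all genes were called, beside 905 with every library. Without WT replicate 1 or WT replicate 2 there were 5 members called, where 1148 and 2112 of all genes were. The 5 Th17 markers summed to 124, 137 and 99.5 CPM in W250S libraries, against 63.7, 78.9 and 53.3 CPM in WT libraries, with no overlap, and their part in these values was not tested. After median-ratio scaling Ndufb9, Ndufb11 and Uqcrb were also called lower, which gave 2 higher and 4 lower, where 6.29% and 7.08% of all genes were. The assembly factors summed to 19.5% more CPM in W250S than in WT cells, while complex I subunits differed by -6.52% and complex IV by -6.57%, each with no overlap. Ndufaf4 and Ndufaf1 were the most abundant assembly factors in that sum. The other assembly factors differed by -0.08 to 0.14 on the log2 scale and were not called. None of the 11 complex IV genes had a positive difference, and none was called by limma. Over all 84 members 24 had a positive difference, the median was -0.06, against 0.04 over all genes, and the sums overlapped, at 1974, 2086 and 2031 CPM in W250S libraries, against 1988, 2072 and 2019 CPM in WT libraries. Of the cytosolic ribosomal genes 27 of 94 were lower and 2 higher.

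**Figure D5:**
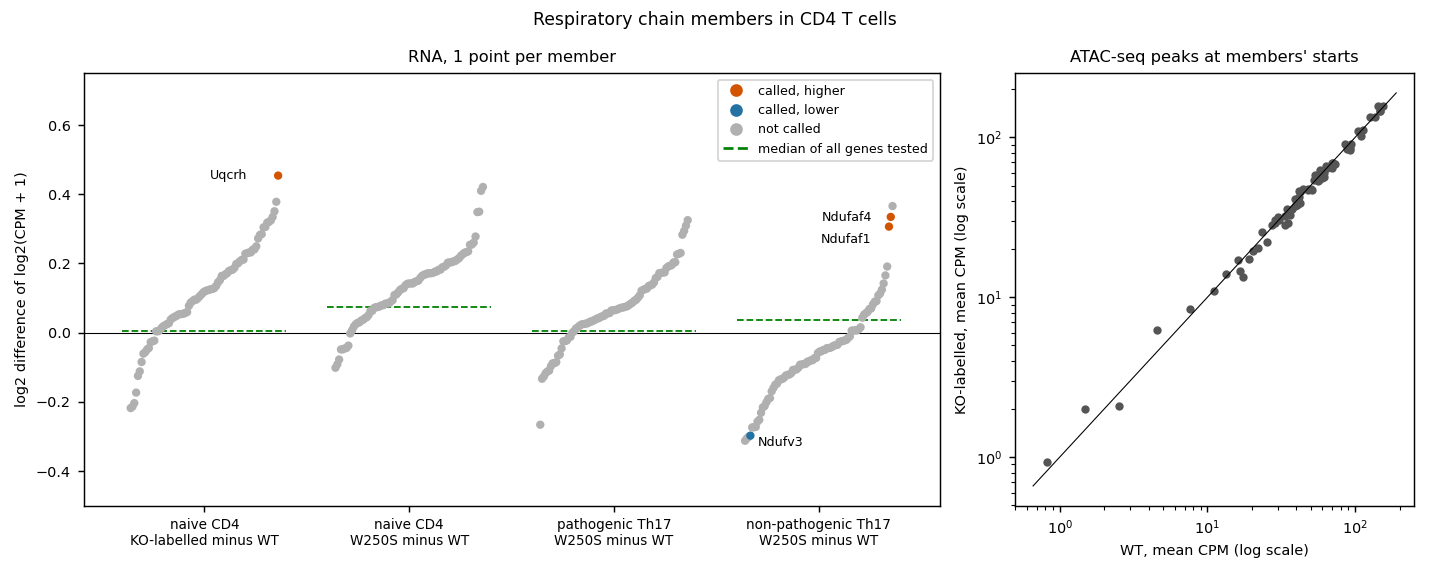
Left, log2 difference of log2(CPM + 1) for each member in the 4 T cell comparisons, KO-labelled or W250S minus WT, sorted within each; colours give the limma call and dashed lines the median of all genes tested. Right, mean CPM of the ATAC-seq peak at each member's start in KO-labelled (vertical) and WT (horizontal) naive CD4 cells on log axes, with the line of equality; the 74 peaks lie along the line and none was called.

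Open chromatin at these genes was measured in naive CD4 cells. The authors annotate 91 peaks to the transcription starts of 74 member genes, of 23797 peaks at starts in all, and 74 of these peaks had enough reads to be tested with edgeR. Tested and untested together, peaks at member starts had a median of 40.1 CPM, against 5.72 CPM over all peaks at starts. No member peak was called by edgeR and 4 had an unadjusted p below 0.05, where 0.00851% of 47000 peaks were called and 9.87% had such a p, and DESeq2 called none either. The median log2 difference was -0.04 at member peaks and -0.0070 over all peaks. Reads in peaks numbered 13708125, 9608651 and 13513574 in KO-labelled libraries, against 6191593, 6557786 and 9713279 in WT libraries.

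The promoters of these genes are known for sites of ETS factors, the family of Elf4, and of NRF1 and YY1, so they were searched on both strands for CCGGAAG (ETS), GCGCATGCG (NRF1) and AAGATGGC (YY1). RefSeq windows (GRCm38.p6) from 250 bases before to 50 after the start matched 77 of the 93 symbols, and a peak at the start overlapped the window of 64. CCGGAAG stood in 22 of 77 member genes (28.6%), against 9.93% of all 27025 genes with a window, GCGCATGCG in 10 (13.0%), against 1.95%, and AAGATGGC in 11 (14.3%), against 3.19%. Members had to reach a mean of 1 CPM, while the 27025 genes were not chosen by expression. No member window held an ETS match that overlapped a YY1 match. CCGGAAG was found in 5 of 7 complex II genes (Sdhb, Sdhd, Sdhaf1, Sdhaf2 and Sdhaf3), in 6 of 15 ATP synthase genes and in 4 of 33 complex I subunit genes. At 16 h of LPS the KO minus WT median was 0.26 over the 22 genes with CCGGAAG, of which 13 were higher and 1 lower, and 0.31 over the 55 without it, of which 33 were higher. A match is a string of letters and not a measured site.

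The 150 bases before the start of 5 members, 1 each for complex I, its assembly, complex III, complex IV and the ATP synthase, are shown because each was higher in KO macrophages at 16 h, has a peak at its start and holds a match. They read 5′ to 3′ on the gene's strand, with the match in capitals: the NRF1 letters, which overlap their own reverse complement there, or the ETS letters read on the opposite strand.
Ndufa11: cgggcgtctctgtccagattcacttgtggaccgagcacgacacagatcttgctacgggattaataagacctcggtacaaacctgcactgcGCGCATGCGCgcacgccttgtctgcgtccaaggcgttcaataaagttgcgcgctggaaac
Ndufaf4: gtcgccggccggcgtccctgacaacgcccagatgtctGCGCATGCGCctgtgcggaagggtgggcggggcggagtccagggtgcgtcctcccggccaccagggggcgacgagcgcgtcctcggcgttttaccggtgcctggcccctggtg
Uqcrh: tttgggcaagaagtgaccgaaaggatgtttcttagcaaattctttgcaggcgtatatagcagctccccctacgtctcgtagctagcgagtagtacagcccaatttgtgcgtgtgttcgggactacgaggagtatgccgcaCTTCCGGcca
Cox6b1: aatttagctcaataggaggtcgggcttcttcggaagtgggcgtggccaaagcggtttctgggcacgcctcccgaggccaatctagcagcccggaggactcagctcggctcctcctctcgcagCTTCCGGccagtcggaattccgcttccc
Atp5g2: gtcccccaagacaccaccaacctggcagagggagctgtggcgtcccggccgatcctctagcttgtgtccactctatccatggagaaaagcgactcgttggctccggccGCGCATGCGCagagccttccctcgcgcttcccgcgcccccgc
The windows lie at chr17:56717612-56717761 (plus strand) for Ndufa11, chr4:24897933-24898082 (plus) for Ndufaf4, chr4:116075071-116075220 (minus) for Uqcrh, chr7:30626115-30626264 (minus) for Cox6b1 and chr15:102671048-102671197 (minus) for Atp5g2, all upstream of the annotated start of the gene. Their peaks averaged 147, 39.1, 134, 17.2 and 84.5 CPM in KO-labelled naive CD4 libraries for Ndufa11, Ndufaf4, Uqcrh, Cox6b1 and Atp5g2 in this order, against 148, 41.9, 126, 16.1 and 88.7 CPM in WT libraries, with adjusted p from 0.735 to 0.914 in edgeR. The same 5 genes differed by 0.29, 0.53, 0.42, 0.26 and 0.46 in KO macrophages at 16 h, a cell type in which chromatin was not measured here.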

How the data were processed

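RNA was measured in 43 libraries of polyadenylated RNA, in 5 tables of CPM that the authors deposited, and open chromatin in 6 libraries as estimated counts per ATAC-seq peak that the authors deposited. The submitters' processing notes name mm10, BWA, Bowtie2, MACS2, Partek 10.0.21.0411 and DESeq2 without roles, and the counting and strand settings are not given in the sources used here. Unmapped reads and genes not listed could enter the per-million totals, and the RNA depth is unknown.

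Each table was tested alone. CPM were tested as log2(CPM + 1) with limma 3.58.1 (R 4.3.3), with a mean-variance trend, two-sided, over genes that reached 1 CPM in 3 or more libraries. The 18 macrophage libraries were fitted together (17.3 residual degrees of freedom), and p-values were Benjamini-Hochberg adjusted over all genes tested, with a threshold of 0.05. A fold on this scale understates the change of low genes. The estimated peak counts, rounded to integers, went into edgeR 4.0.16 (quasi-likelihood, TMM), with DESeq2 1.42.0 as an alternative. The procedures were tested on simulated data with changes larger than most differences between genotypes reported here, so the recovery of smaller ones was not checked.

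Named genes were, in each complex and comparison, up to 4 called members with the largest difference and up to 2 abundant members not called, beside isoform genes and complex II subunits. The members and lists were chosen with earlier results of these data known. Alternatives were pseudocounts of 0.1 and 5, no filter on low values, median-ratio scaling, fitting only the libraries compared, a replicate block and leaving out each library. In WT macrophages the deviations of libraries with the same replicate number correlated across times by 0.108 to 0.307, so the numbers were taken to pair these libraries by this check alone (their mouse numbers differ), and the block moved no count of the WT time comparisons by over 1.5 times. In KO macrophages such correlations ran from 0.0566 to 0.533. The p-values printed for macrophages come from the fit without a block.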

Additional observations from a re-analysis of the deposited data

Results flagged for a closer look

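The difference between the KO effect at 16 h and at 0 h passed the interaction test in limma for 6 members, and each was larger at 16 h. On the log2 scale the difference of effects was 0.62 for Atp5g1, 0.56 for Ndufs5, 0.50 for Ndufa12, 0.50 for Atp5g2, 0.44 for Atp5h and 0.42 for Atp5d. Atp5g1 and Atp5g2 also passed after median-ratio scaling. For Ndufs5 the KO libraries lay wholly below WT at 0 h and wholly above WT at 16 h. At 0 h it had 26.9, 28.1 and 27.3 CPM in KO libraries, against 30.9, 29.0 and 28.6 CPM in WT libraries. That log2 difference of -0.10 was not called, and 7.35% of all genes lay wholly below WT at 0 h. At 16 h Ndufs5 had 27.6, 29.6 and 36.9 CPM in KO libraries, against 22.6, 22.5 and 21.9 CPM in WT libraries. Its tagged copy, Ndufs5-ps, went the opposite way at 0 h, with means of 3.96 CPM in KO and 2.67 CPM in WT libraries. The part of reads split with that copy was not tested. For the 21 members checked in the 1 group of 4 libraries, KO-labelled naive CD4 cells, no single library stood apart.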

How the results depend on the processing

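Under median-ratio scaling members called numbered 47 (43 higher, 4 lower) for WT 4 h against 0 h, 65 (8 higher, 57 lower) for WT 16 h against 4 h, 34 for WT 16 h against 0 h, 21 for KO against WT at 16 h, 2 for its difference from 0 h and 6 (2 higher, 4 lower) in non-pathogenic Th17 cells. The member medians became 0.21 for WT 4 h against 0 h and -0.27 for WT 16 h against 4 h. The call turned to the opposite direction for 42 of all members at 4 h against 0 h, 3 at 16 h against 0 h and 10 at 16 h against 4 h. Among the genes picked by the naming rule alone, the scaled log2 differences turned positive at 4 h against 0 h for Atp5d (0.12), Atp5g1 (0.10), Atp5g3 (0.24), Atp5h (0.053), Cox6c (0.35), Cox7a1 (0.031), Cox7b (0.28), Cox8a (0.28), Sdha (0.23), Sdhaf2 (0.0070), Sdhb (0.086), Sdhc (0.20), Sdhd (0.019), Uqcr10 (0.075), Uqcrc1 (0.40) and Uqcrh (0.22). At 16 h against 0 h they did for Cox5a (0.39), Ndufaf1 (0.37), Ndufb9 (0.35), Ndufs3 (0.45), Sdhd (0.044) and Uqcrc2 (0.40). At 16 h against 4 h they turned negative for Atp5md (-0.057), Atp5o (-0.20), Atp5pb (-0.34), Cox5a (-0.064), Cox6a1 (-0.39), Cox6b1 (-0.21), Cox7a2l (-0.15), Cox8a (-0.18), Ndufa9 (-0.30), Ndufs1 (-0.43), Sdhc (-0.25), Uqcrb (-0.37), Uqcrc1 (-0.30) and Uqcrc2 (-0.25). With each library left out in turn, counts of members called ran from 26 to 53 for KO against WT at 16 h (2515 to 3501 of all genes), from 1 to 9 for its difference from 0 h (282 to 1031), from 0 to 4 in KO-labelled naive cells (at most 1380), from 0 to 1 in W250S naive cells (204 to 557), from 0 to 5 in non-pathogenic Th17 cells (54 to 2112) and from 0 to 2 for ATAC-seq peaks (0 to 2070 of all peaks). With a block by genotype and replicate number, which pairs times within a genotype, 15 members were called for the 16 h difference from 0 h. Deviations of same-number KO libraries at 16 h and 0 h correlated by 0.0566 to 0.518. A block by replicate number called 2 members in KO-labelled and 3 in W250S naive cells, and 60 for KO against WT at 16 h. Its numbers do not pair KO with WT libraries. Of all genes the blocks called 1788 (778 without a block), 1597 (1036), 1261 (516) and 4041 (3683) in these comparisons, in this order. The causes were not tested. Pseudocounts, filters and the set of libraries fitted left every count within 1.5 times. The edgeR test on whole reads recovered from CPM was not run, since low values were not whole multiples of 1 step. For the 2 Th17 tables no paired analysis was possible because their columns carry no replicate numbers that the labels tie to samples.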

Other observations

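Cox4i2, Cox6a2, Cox6b2 and Ndufa4l2, genes of the same families, lay below the mean of 1 CPM in macrophages and were no members. Cox4i2, an isoform of a complex IV subunit known from lung and from low oxygen, had 0.994, 1.35 and 0.358 CPM in KO macrophages at 16 h, against 0.142, 0.132 and 0.345 CPM in WT macrophages. Ndufa4l2, a paralog of Ndufa4 known as a target of HIF-1, had 0.918, 2.17 and 0.954 CPM in KO macrophages at 16 h, against 0.355, 0.462 and 0.690 CPM in WT macrophages. The KO libraries lay wholly above WT for both, where 33.6% of all genes tested did so. For Cox4i2 the nearest libraries were 0.358 CPM in KO and 0.345 CPM in WT. Cox6a2, with 0.153 to 0.775 CPM in KO and 0.207 to 0.330 CPM in WT macrophages at 16 h, and Cox6b2, with at most 0.298 CPM in KO and 0.276 CPM in WT macrophages, overlapped. Cox4i2 and Ndufa4l2 were highest in KO replicate 2, the library with the highest stromal marker sum (2274 CPM), and their part in these values was not tested. Acod1, the enzyme that makes itaconate, an inhibitor of complex II, averaged 2744 CPM in KO and 3238 CPM in WT macrophages at 16 h.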
